A study of Mus musculus with 10 samples.

Results

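The D-proximal IGHV1 genes are the members of the large IGHV1 (J558) family with a positional number of 45 or lower, counted in the *Igh* rearrangements of peritoneal B-1a cells from wild-type (WT) and Igll1-/- mice. A clonotype, which is 1 rearrangement defined by its V, D and J genes and its CDR3, was assigned to these genes when it was listed with a single gene named IGHV1 and such a number; the IGHV1S genes were left out. The rule used only the gene names. It found 27 of the 141 *Ighv* genes that carried clonotypes listed with 1 V gene. These 27 genes held 11607 of 55129 and 11171 of 49809 clonotypes in WT replicates 1 and 2, and 6731 of 32386 and 12232 of 58205 in Igll1-/- replicates 1 and 2.

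The 4 libraries were amplified from genomic DNA of peritoneal cavity B-1a cells, 2 from each genotype, all from C57BL/6 mice aged 6 to 8 weeks. Igll1 encodes lambda5, a component of the surrogate light chain, so Igll1-/- mice cannot assemble a pre-B cell receptor; the deletion is in the germline and is not limited to B-1a cells. The forward primers lay in framework region 3 and the reverse primers in J, and a gene that its primer binds poorly is under-represented. Original molecules were not barcoded, and the number of reads of a clonotype mixes cell number with amplification. The comparison asks whether B-1a cells that bypassed the pre-B cell receptor used these V genes, and built their CDR3s, as WT B-1a cells did.

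In the mouse heavy chain locus the V genes lie in a long array upstream of the D and J genes. A V gene joins to an already assembled DJ segment, and the junction forms CDR3, the loop that often touches antigen. IGHV1 is the largest family and fills the part of the array far from D, behind the small D-proximal families such as IGHV2 and IGHV5. Within IGHV1 the number rises with distance from D, and the families nearest to D are known to be favoured in fetal life, when many B-1a cells arise. Deletion of bases and addition of N nucleotides by terminal deoxynucleotidyl transferase (TdT) set the length of CDR3; fetal junctions are known to be short because TdT is low.

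Library depth and quality touched these genes as follows. Between 68.0% and 73.4% of all clonotypes of a library rested on 1 read, and 70.9% to 77.6% of those on the D-proximal IGHV1 genes. Clonotypes listed with several V genes made up 14.3% to 21.3% of a library; they stayed in the total but were counted to no gene. A count of 0 allowed a share of up to 0.00515% to 0.00926%, from 3 counts of the library total, and this floor covers counting error only. IGHV11-2 and IGHV12-3, the V genes known from phosphatidylcholine-binding B-1a cells, were present in every library. IGHV11-2 took 2.99% and 4.79% of clonotypes in WT and 0.821% and 0.960% in Igll1-/- libraries, and IGHV12-3 took 4.32% to 5.09% in the 4 libraries.

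The CDR3 amino acid sequences below are among those with most reads on these genes, and they are shown because several later values turn on them. All letters are in 1-letter amino acid code, read from the deposited tables, and a star marks a stop codon.
IGHV1-19 with IGHD4-1 and IGHJ3: ATGTWFAY
IGHV1-20 with IGHD2-5 and IGHJ4: AYYSNYYAMDY
IGHV1-42 with IGHJ2 and no D gene: ARWDY
IGHV1-7 with IGHD2-5 and IGHJ2: ARRRLL**LRYYFDY
IGHV1-22 with IGHD2-3 and IGHJ3: AMMVTAY
IGHV1-12 with IGHD1-1 and IGHJ2: ARFTTVVATYYFDY
IGHV1-11 with IGHJ2 and no D gene: GYDFDY
The first of these, ATGTWFAY on IGHV1-19, held 277 and 60 reads in the WT libraries and 489 and 1743 reads in the Igll1-/- libraries, and was the only rearrangement of the list with at least 60 reads in all 4 libraries. The other rearrangements of this list had most of their reads in 1 or both libraries of a single genotype. AYYSNYYAMDY on IGHV1-20 had 13, 0, 2 and 1793 reads in WT replicates 1 and 2 and Igll1-/- replicates 1 and 2. ARWDY on IGHV1-42 was seen only in Igll1-/- replicate 2, with 1287 reads. ARFTTVVATYYFDY on IGHV1-12 went the other way, with 190 and 608 reads in WT and 1 and 2 reads in Igll1-/- libraries.

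As a group, the D-proximal IGHV1 genes took 21.1% and 22.4% of all clonotypes in WT and 20.8% and 21.0% in Igll1-/- libraries. The 95% Wilson interval of each share was narrower than 1 percentage point (20.7 to 21.4, 22.1 to 22.8, 20.35 to 21.2 and 20.7 to 21.4). The mean was 21.7% ± 0.97 (SD, n = 2) in WT and in the Igll1-/- libraries it was 20.9% ± 0.16 (SD, n = 2), a difference of -0.84 percentage points (exact two-sided permutation test, p = 0.333). With 2 libraries per genotype this test cannot give a p below 0.333. All 4 libraries thus lay close together, and the gap between the genotypes was smaller than the gap between the WT replicates. Clonotypes listed with several of these genes and no other gene are outside this share. They made up 2.27% and 2.25% in WT and 4.04% and 3.56% in Igll1-/- libraries. With each clonotype given to its first V gene listed, the difference turned to 1.17 percentage points, so its direction depends on how such clonotypes are counted. The study describes the replicates as independent experiments, and the labels do not say how many mice each held; the p-values measure only the spread between these libraries.

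By reads the share was lower, at 13.8% and 14.6% in WT and 12.3% and 16.8% in Igll1-/- libraries (exact permutation test, p = 1). The direction of the small difference turned, to 0.36 percentage points. Each clonotype on these genes carried 2.57 and 2.77 reads in WT and 3.30 and 3.92 reads in Igll1-/- libraries, against 3.92, 4.27, 5.58 and 4.91 reads over all *Igh* clonotypes of the same libraries. In every library the D-proximal IGHV1 genes therefore held fewer reads per clonotype than the library as a whole. Among the 100 clonotypes with most reads of a library, 8 and 10 in WT and 14 and 16 in Igll1-/- libraries lay on these genes.

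The position within the family was measured as the D-proximal share of all clonotypes on numbered IGHV1 genes. The other side of the limit, the D-distal genes with number 46 or higher, also had 27 genes with clonotypes. The D-proximal share was 44.1% and 51.0% in WT and 45.7% and 48.0% in Igll1-/- libraries, so the Igll1-/- values lay between the WT values. The difference was -0.75 percentage points (47.6% ± 4.9 against 46.8% ± 1.6, SD, n = 2 each, exact permutation test, p = 1), and it was positive, at 2.71 and 0.40, without WT replicate 2 or without Igll1-/- replicate 1. By reads the share was 44.0%, 49.5%, 38.8% and 48.4% in the same order (exact permutation test, p = 0.667). The D-distal genes likewise held fewer reads per clonotype than the library as a whole in all 4 libraries, so this was not particular to the D-proximal genes.

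Along the order the use of the genes was uneven in all 4 libraries. The 10 genes with numbers 1 to 15 together took 9.02% to 10.5% of clonotypes and the 10 genes with numbers 16 to 30 took 7.96% to 9.91%. The 7 genes with numbers 31 to 45 took 2.67% at most. These 7 genes held 2.49% and 2.67% in WT and 2.33% and 2.49% in Igll1-/- libraries, so the values of both genotypes nearly touched. Clonotypes listed with both IGHV1-26 and IGHV1-34, at 1.94% to 3.46% of a library, were not counted along this order. Beyond the limit the share was higher again, at 3.91% to 6.36% for numbers 46 to 60 and 8.46% to 10.2% for numbers 61 to 75. Across the 27 genes, which are not independent, Spearman's rho between number and percent of clonotypes was -0.29, -0.35, -0.28 and -0.26.

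**Figure D1:**
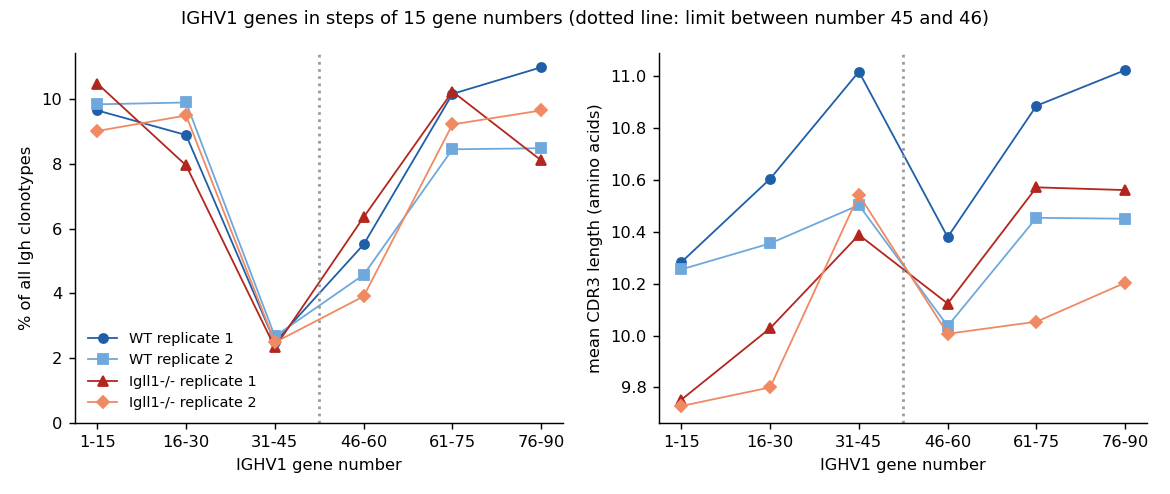
Left, percent of all Igh clonotypes on IGHV1 genes grouped by gene number in steps of 15; right, mean CDR3 length in amino acids of their productive clonotypes (axis not from 0), 1 line per library and a dotted line at the limit between the D-proximal and D-distal genes. Among clonotypes listed with 1 V gene, the genes numbered 31 to 45 took the smallest share in every library. At numbers 1 to 30 the Igll1-/- means lay below both WT means.

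A few genes accounted for most of this use. The 10 most used genes held 90.7% and 90.8% of the D-proximal clonotypes in WT and 84.9% and 82.7% in Igll1-/- libraries. Over the 4 libraries 9 genes averaged at least 1% of all clonotypes and 12 genes less than 0.1%. IGHV1-34 is among the 12 without the clonotypes listed with both IGHV1-26 and IGHV1-34. By the classes in the deposited allele names, 19 of the 27 genes are functional, IGHV1-23 is an open reading frame and 7 are pseudogenes, the same 7 that RefSeq (GRCm38.p6) lists as pseudogenes. In that annotation the IGHV1 numbers up to 45 follow each other along the chromosome without a break, which is the basis for reading the number as an order. RefSeq also lists the V segments Ighv1-16, Ighv1-19-1, Ighv1-24 and Ighv1-26, to which no clonotype was assigned alone.

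IGHV1-19 was the most used gene in 3 of the 4 libraries. It took 3.32% and 5.24% of clonotypes in WT and 2.91% and 3.28% in Igll1-/- libraries, and its largest clonotype in WT replicate 1 and in both Igll1-/- libraries was ATGTWFAY. Both Igll1-/- values were below both WT values, but the gap to WT replicate 1 was small, and edgeR gave -0.47 on the log2 scale with a standard error of 0.27 (adjusted p = 0.599).

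IGHV1-15 ranked next over all libraries and was the most used gene in Igll1-/- replicate 1. It took 2.94% and 1.55% in WT and 3.51% and 2.87% in Igll1-/- libraries, and WT replicate 1 lay between the Igll1-/- libraries. On the log2 scale it differed by 0.51 with a standard error of 0.36 (edgeR adjusted p = 0.639). IGHV1-18 took 2.86% and 1.99% against 2.08% and 1.75%, and the genotypes overlapped. IGHV1-7 took 1.84% and 2.25% against 2.57% and 1.96%. The other genes among the 10 most used, IGHV1-9, IGHV1-39, IGHV1-22, IGHV1-5, IGHV1-12 and IGHV1-36, took between 0.571% and 2.52% in single libraries, and for each of them the genotypes overlapped. Among these 6 genes IGHV1-5 had the widest gap between WT replicates, at 0.916% and 2.52% in WT and 0.741% and 1.08% in Igll1-/- libraries.

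**Figure D2:**
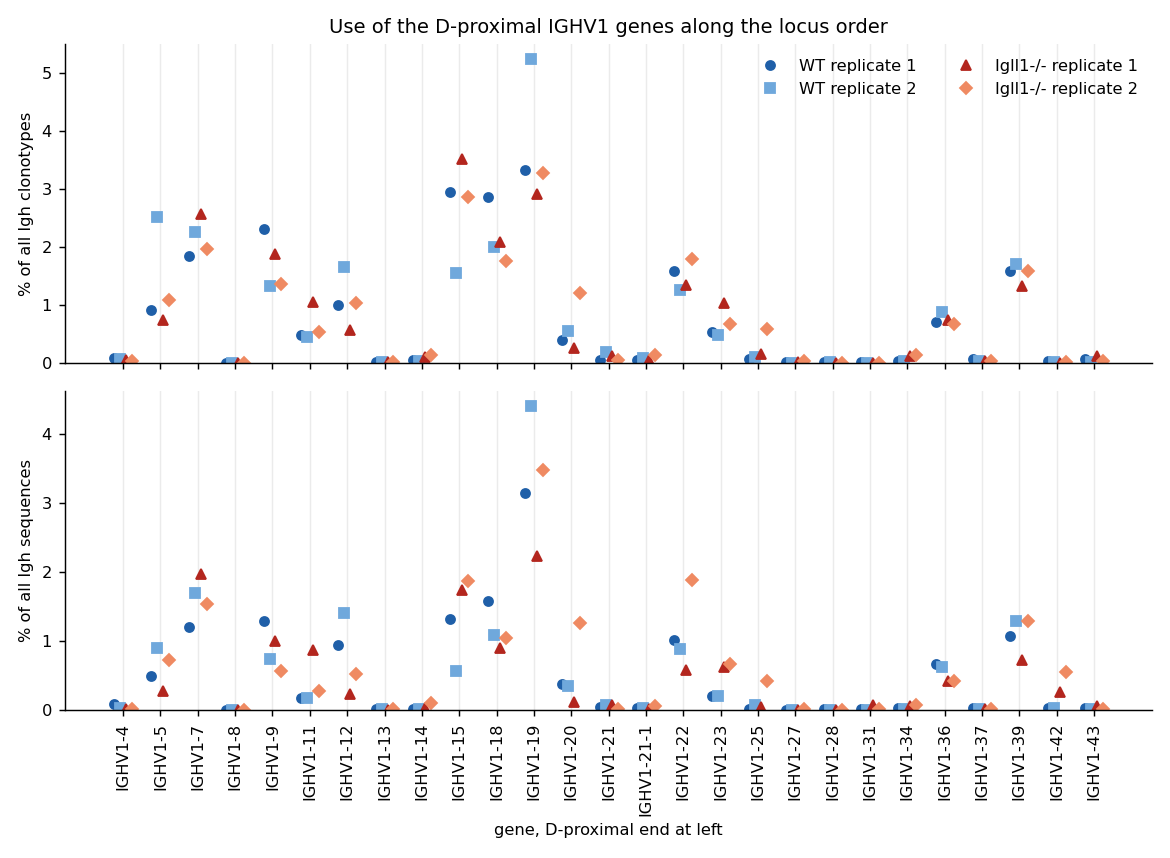
Percent of all Igh clonotypes (top) and of all Igh reads (bottom) on each D-proximal IGHV1 gene, ordered from the D-proximal end at left; 1 point per library, blue for WT and red or orange for Igll1-/-. IGHV1-19 reached 5.24% of clonotypes in WT replicate 2, and IGHV1-42 held visible reads only in the Igll1-/- libraries.

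Testing needed 10 clonotypes or more in 2 or more libraries, which 91 *Ighv* genes had. Of these, 0 (0%) differed between the genotypes at an adjusted p-value under 0.05 with edgeR's quasi-likelihood test, and 8 (8.79%) at an unadjusted p under 0.05. The 23 D-proximal IGHV1 genes among them gave 0 and 3, against 0 and 1 of 23 D-distal genes. DESeq2 gave 0 D-proximal genes at an adjusted and 2 at an unadjusted p under 0.05. Its count over all genes is not given here, so the 2 cannot be set against a background. The median log2 fold change was 0.09 over the 23 D-proximal genes, -0.18 over the 23 D-distal genes and -0.03 over all 91. Both Igll1-/- libraries lay above both WT libraries for 5 of the 23 genes, beside 16 of 91 (17.6%) over all genes, and below for 2 of 23, beside 18 of 91 (19.8%). For the members these counts are 21.7% and 8.70%.

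The genes with the largest log2 fold changes, IGHV1-25, IGHV1-34 and IGHV1-14, were rare among clonotypes listed with 1 V gene. IGHV1-34 took 0.0327% and 0.0301% in WT and 0.114% and 0.137% in Igll1-/- libraries, which edgeR put at 1.997 on the log2 scale (standard error 0.50, adjusted p = 0.412). These values leave out the clonotypes listed with both IGHV1-26 and IGHV1-34, which made up 1.96% and 1.94% in WT and 3.46% and 2.95% in Igll1-/- libraries. IGHV1-25, a pseudogene by both annotations, took 0.0599% and 0.0984% against 0.157% and 0.591%, and its 2.25 (standard error 0.80) had an edgeR adjusted p of 0.412. Without Igll1-/- replicate 1 it was 2.90 (edgeR adjusted p = 0.014) and without Igll1-/- replicate 2 it was 0.99 (edgeR adjusted p = 0.840); in both fits the lone Igll1-/- library is assumed to vary like the WT libraries. IGHV1-14 took 0.0508% and 0.0281% against 0.0988% and 0.141%. IGHV1-11 took 0.479% and 0.448% against 1.05% and 0.541%. IGHV1-23, with the next smaller change, took 0.526% and 0.484% against 1.03% and 0.665%. IGHV1-4, the D-proximal end of the list, was the other gene below both WT libraries, at 0.0925% and 0.0663% against 0.0556% and 0.0258% (a log2 difference of -0.99 at an edgeR adjusted p of 0.599). At the other end IGHV1-43 took 0.0653% and 0.0221% against 0.114% and 0.0258%.

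Part of the clonotypes on these genes had CDR3s that were better represented on another gene or list of genes. A clonotype was set apart when the same CDR3 with the same J gene occurred in the same library on another V gene, or list of V genes, with at least 10 times the reads. This held for 10.3% and 33.4% of the D-proximal clonotypes in WT and 22.4% and 33.1% in Igll1-/- libraries, close to 14.0%, 34.02%, 26.9% and 33.99% over all *Igh* clonotypes. For IGHV1-34 it held for 33.3% and 86.7% in WT and 89.2% and 83.8% in Igll1-/- libraries. The list that names both IGHV1-26 and IGHV1-34 counted as another list here, and it held 965 to 1718 clonotypes per library. The IGHV1-34 values therefore do not show that its CDR3s lay on a different gene. For IGHV1-4 it was 51.0%, 72.7%, 88.9% and 93.3% in the same order, for IGHV1-25 it was 12.1%, 53.1%, 78.4% and 63.1%, and for IGHV1-14 it was at most 35.7% in WT and 65.6% and 64.6% in Igll1-/- libraries. IGHV1-23, at 11.0%, 40.2%, 28.4% and 29.97%, and IGHV1-43, at 13.9% to 40.5%, lay nearer to the values over all clonotypes. Among the genes in the main use it was lowest for IGHV1-15, at 2.65% to 22.3%. Short CDR3s can also arise independently on several V genes, and which share of these clonotypes did so was not tested.

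Without these clonotypes the genotypes overlapped for IGHV1-34 (0.0253% and 0.00609% in WT, 0.0169% and 0.0338% in Igll1-/-), and also for IGHV1-25, IGHV1-11 and IGHV1-19. IGHV1-14 and IGHV1-23 remained above in both Igll1-/- libraries, IGHV1-23 at 0.544% and 0.438% against 1.01% and 0.705%, and IGHV1-4 remained below. In all, 4 of the 23 genes then lay above and 5 below. The share over all *Ighv* genes is not given for this setting, so these counts have no background to be read against. The edgeR count of genes with an adjusted p under 0.05 was again 0.

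**Figure D3:**
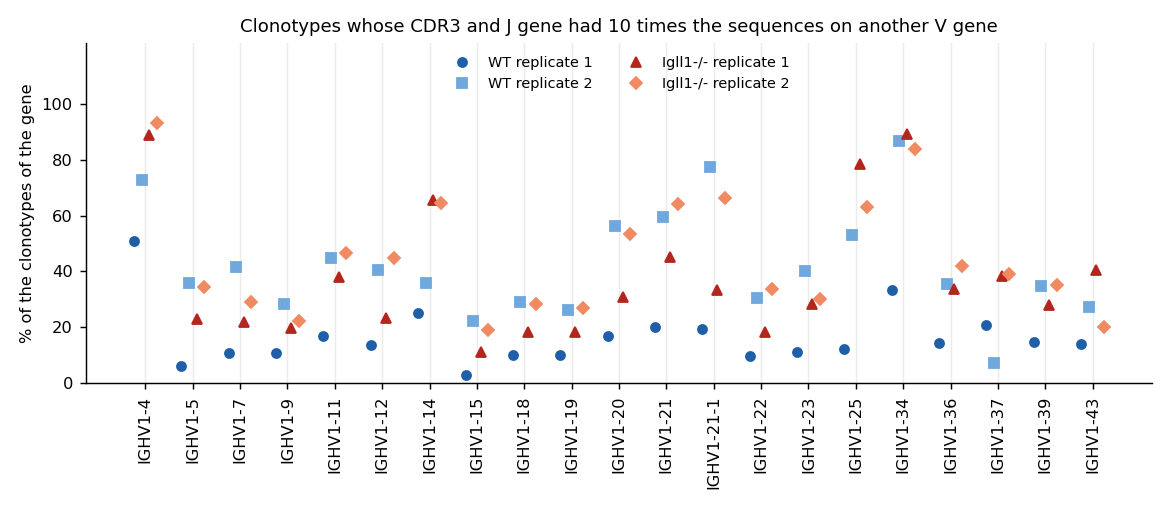
Percent of each gene's clonotypes whose CDR3 and J gene had at least 10 times the reads on another V gene or list. The comparison was made within each library, for the D-proximal IGHV1 genes with at least 10 clonotypes in every library (1 point per library). IGHV1-4 and IGHV1-34 reached 93.3% and 89.2%, while IGHV1-15 stayed at 22.3% or lower. A list can include the gene itself, as for IGHV1-34, whose values therefore do not show that its CDR3s lay on a different gene.

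The CDR3 YYSDY was 1 example of a CDR3 spread over many V genes. In Igll1-/- replicate 1 it was found with 64 V genes or lists, and 4007 of its 5490 reads lay on clonotypes that could not be told apart between IGHV1-26 and IGHV1-34. In that library 21 of the 27 D-proximal genes carried it, in 41 clonotypes with 775 reads, of which IGHV1-23 held 221. In the other libraries YYSDY had 45, 12 and 13 reads in all. In Igll1-/- replicate 2 ATGTWFAY was found with 80 V genes or lists, and 1743 of its 3469 reads lay on IGHV1-19. ARWDY was found with 73 in that library, and 1287 of its 3301 reads lay on IGHV1-42.

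Counting only clonotypes with at least 10 reads gave a different list. Then 3 of 42 genes tested (7.14%) passed at an adjusted p under 0.05, and IGHV1-15 and IGHV1-23 were among them. IGHV1-15 had 28 and 13 such clonotypes in WT and 68 and 70 in Igll1-/- libraries, which is 1.89 on the log2 scale with a standard error of 0.58 (edgeR adjusted p = 0.021). IGHV1-23 had 3 and 5 in WT and 17 and 51 in Igll1-/- libraries, 3.09 (standard error 0.78, edgeR adjusted p = 0.0031). Of these clonotypes, 2 and 11 of IGHV1-15 and 7 and 20 of IGHV1-23 in the Igll1-/- libraries had 10 times the reads on another V gene or list. IGHV1-19 had 186 and 182 against 72 and 118, or -0.86 on the log2 scale at an edgeR adjusted p of 0.056. Only 336 to 540 D-proximal clonotypes per library reached 10 reads.

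By reads, 1 of 100 genes (1%) passed, and it was not a D-proximal IGHV1 gene. IGHV1-42 stood out in size, with 0.0315% and 0.0197% of all reads in WT and 0.262% and 0.541% in Igll1-/- libraries. A single rearrangement made up 99.6% and 83.2% of its Igll1-/- reads, ARGFAY with IGHJ3 in replicate 1 and ARWDY with IGHJ2 in replicate 2, and both lacked an assigned D gene. By clonotypes the same gene took 0.00618% to 0.0308% and its genotypes overlapped. IGHV1-20 and IGHV1-22 likewise owed much of their reads in Igll1-/- replicate 2 to 1 clonotype each, of 49.3% and 21.9%. Across the 27 genes percent of clonotypes and percent of reads still ranked alike, with Spearman's rho of 0.96, 0.98, 0.91 and 0.92.

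Over all 27 genes, the percent of D-proximal clonotypes that would have to lie on another of these genes for a pair of libraries to match was 17.2% ± 6.1 (SD over 4 pairs, which share libraries) between a WT and an Igll1-/- library. It was 20.3% between the WT and 16.1% between the Igll1-/- replicates. WT replicate 1 was nearer to both Igll1-/- libraries, at 13.7% and 11.3%, than to WT replicate 2. The chi-square between replicates, over 24 genes, was 1272 in WT and 731 in Igll1-/- libraries, each on 23 degrees of freedom. It treats each clonotype as an independent draw, which repeated and near-identical CDR3s do not meet. It therefore cannot separate sampling noise from other differences between replicates. All 4 libraries were kept apart.

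A productive rearrangement is in frame and without a stop codon; unproductive ones usually lie on the other allele and are not selected through the receptor. Of the D-proximal clonotypes 92.3% and 92.0% were productive in WT and 95.1% and 94.1% in Igll1-/- libraries. Both Igll1-/- libraries were above both WT libraries, by 2.40 percentage points on average (94.6% ± 0.70 against 92.15% ± 0.16, SD, n = 2 each), and the exact permutation test gave its smallest p, 0.333. Over all *Igh* clonotypes the productive share was 92.3% and 93.0% against 94.0% and 94.0%, which also did not overlap. D-distal genes had 93.0%, 91.7%, 93.5% and 93.6%. The difference between D-proximal and D-distal genes of the same library was -0.69, 0.33, 1.55 and 0.45 percentage points (exact sign-flip permutation test over 4 libraries, p = 0.5, smallest possible 0.125).

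Gene by gene, the genotypes could be set side by side for the 15 D-proximal genes with at least 20 productive clonotypes in every library. The productive share was higher in both Igll1-/- libraries for 11 of them and lower for 0, beside 24 of 64 (37.5%) and 6 of 64 (9.38%) over all *Ighv* genes. IGHV1-23 had 83.8% and 88.4% in WT and 94.3% and 93.5% in Igll1-/- libraries. IGHV1-18 had 88.8% and 91.4% against 94.1% and 92.8%, and IGHV1-12 had 92.4% and 92.7% against 95.1% and 94.3%.

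IGHV1-7 had 94.97% and 83.5% in WT and 95.8% and 95.9% in Igll1-/- libraries. In WT replicate 2, 185 of its 1121 clonotypes were unproductive, and 64 clonotypes lay within 1 amino acid of the stop-containing ARRRLL**LRYYFDY, which alone had 1253 reads there and 2 to 9 reads elsewhere. Without IGHV1-7 the difference of the whole group stayed positive.

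Productive clonotypes were also listed on pseudogenes. IGHV1-25 had 72.7% and 87.8% in WT and 94.1% and 96.8% in Igll1-/- libraries. However, 63.1% to 78.4% of its Igll1-/- clonotypes had a CDR3 with 10 times the reads on another V gene or list. IGHV1-27, in contrast, had 0 productive of 5, 3, 5 and 20 clonotypes. The 7 pseudogenes together held 1.02% and 1.80% of D-proximal clonotypes in WT and 1.75% and 4.01% in Igll1-/- libraries.

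The CDR3 of productive D-proximal clonotypes averaged 10.51 and 10.33 amino acids in WT and 9.93 and 9.86 in Igll1-/- libraries. The Igll1-/- mean was thus shorter in libraries that did not overlap, at 9.89 ± 0.05 against 10.42 ± 0.12 amino acids (SD, n = 2 each), a difference of -0.53 with the smallest p the exact permutation test can give, 0.333. CDR3s of 8 or fewer amino acids made up 24.8% and 26.5% in WT and 32.0% and 34.5% in Igll1-/- libraries. CDR3s of 13 or more made up 23.3% and 20.7% against 19.1% and 18.7%. The direction was the same under every setting tried, and the difference ran from -0.27, with equal weight for each V gene, to -1.27, for clonotypes with at least 10 reads.

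**Figure D4:**
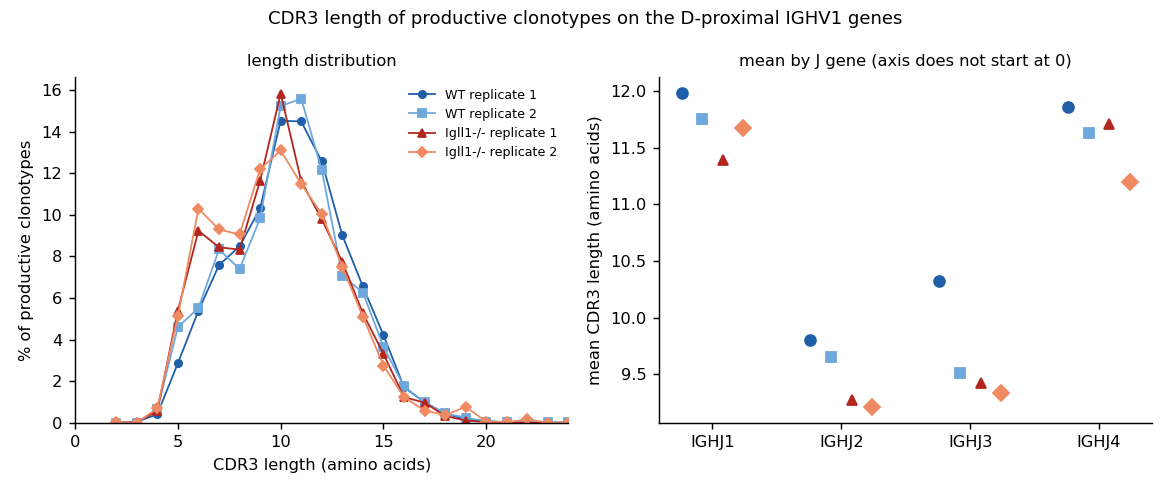
Left, percent of productive D-proximal clonotypes at each CDR3 length in amino acids, 1 line per library; right, mean CDR3 length by J gene (axis not from 0), 1 point per library. The Igll1-/- lines are higher at 5 to 7 amino acids and lower at 11 and 12, and with IGHJ2 and IGHJ3 both Igll1-/- means lie below both WT means.

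The same means were taken over other gene groups, and whether the differences between the genotypes varied among groups was not tested. All productive *Igh* clonotypes averaged 10.69 and 10.51 amino acids in WT and 10.42 and 10.24 in Igll1-/- libraries. This was a difference of -0.27, and the genotypes did not overlap. D-distal IGHV1 genes averaged 10.84 and 10.37 against 10.45 and 10.11, where the genotypes overlapped, and the IGHV2 and IGHV5 families next to D averaged 11.17 and 11.07 against 11.30 and 11.07. Within each library the D-proximal genes had shorter CDR3s than the D-distal genes, by -0.33, -0.04, -0.53 and -0.25 amino acids (mean -0.29 ± 0.20, SD over 4 libraries, exact sign-flip permutation test, p = 0.125, the smallest possible). By reads this difference was -0.004 on average, positive in both WT libraries at 0.10 and 0.56 and negative in both Igll1-/- libraries at -0.28 and -0.40.

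The shorter mean was spread over many of the genes. Of the 15 genes with at least 20 productive clonotypes in every library, 10 had a shorter mean CDR3 in both Igll1-/- libraries and 0 a longer one, beside 25 of 64 (39.1%) and 6 of 64 (9.38%) over all *Ighv* genes and 9 and 0 of 21 D-distal genes. The widest gap was that of IGHV1-12, with 11.04 and 10.93 amino acids in WT and 10.01 and 9.91 in Igll1-/- libraries. IGHV1-15 averaged 9.78 and 9.59 against 9.02 and 9.13, and IGHV1-19 averaged 10.58 and 10.50 against 10.13 and 10.09. IGHV1-7 and IGHV1-9 differed by -0.03 and 0.06, and their genotypes overlapped. The number of the gene and its mean CDR3 length had no common direction, with Spearman's rho of -0.09, -0.21, 0.10 and -0.12 over the 15 genes.

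**Figure D5:**
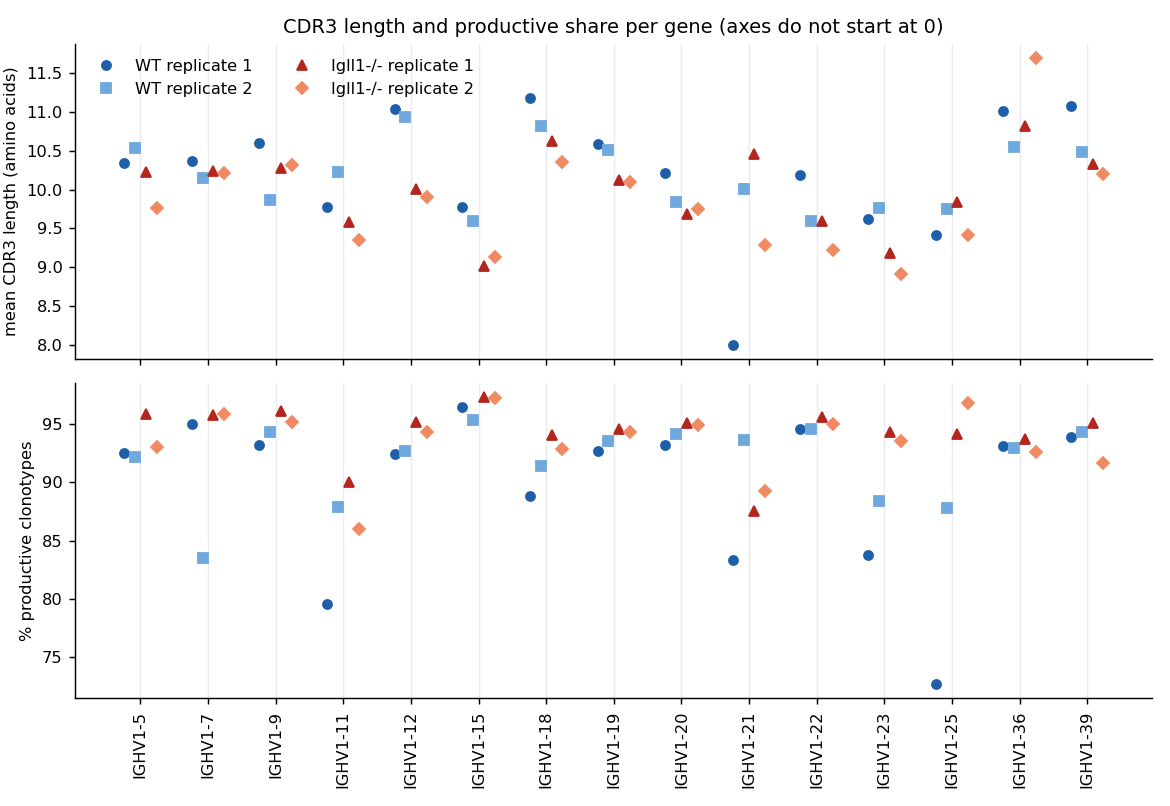
Mean CDR3 length in amino acids (top) and percent of productive clonotypes (bottom) for the 15 D-proximal IGHV1 genes with at least 20 productive clonotypes in every library; 1 point per library, axes not from 0. The mean length was lower in both Igll1-/- libraries for 10 genes, and the productive share was higher in both for 11.

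The D and J genes of these rearrangements were compared in the same way. IGHJ2 was joined to 46.1% to 51.3% of D-proximal clonotypes and IGHJ3 to 16.6% to 23.8%, and no J gene separated the genotypes. With IGHJ2 the mean CDR3 length of productive clonotypes was 9.81 and 9.65 amino acids in WT and 9.28 and 9.21 in Igll1-/- libraries, and with IGHJ4 it was 11.86 and 11.63 against 11.71 and 11.20, where the genotypes overlapped. With the same J gene makeup in all libraries the difference was -0.44 amino acids.

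IGHD1-1 was the most frequent D gene, in 30.5% and 30.5% of WT and 28.2% and 29.9% of Igll1-/- clonotypes. IGHD4-1 (DQ52), the D gene nearest to J, was assigned to 9.91% and 11.7% in WT and 9.63% and 9.33% in Igll1-/- libraries. Clonotypes without an assigned D gene, as in GYDFDY above, made up 5.50% and 5.87% in WT and 8.05% and 7.30% in Igll1-/- libraries, which did not overlap. On D-distal genes they were 4.98% and 6.30% against 6.41% and 6.78%, and over all *Igh* clonotypes 5.62% and 5.85% against 6.40% and 6.71%. The genotypes did not overlap there either, so this was not particular to the D-proximal genes. The productive clonotypes without a D gene averaged 6.21 to 6.38 amino acids in the 4 libraries.

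Identity to the germline V gene was high over the short framework region 3 stretch that was read. In WT 66.6% and 64.2% of D-proximal clonotypes had 100% identity, and in Igll1-/- libraries 60.8% and 61.8%, against 41.2% to 46.7% of D-distal clonotypes. Single genes differed widely. IGHV1-19 matched fully in 77.1% to 80.7% and IGHV1-15 in 73.6% to 79.8% of clonotypes. IGHV1-23, with 35.7% to 50.4%, and IGHV1-25, with 15.1% to 51.5%, lay in between. IGHV1-7 matched fully in 0.197% to 1.93% and IGHV1-11 in 0.448% to 0.882%, with a median identity of 99.02% for both genes in all 4 libraries, and IGHV1-4 and IGHV1-14 had 0 full matches. The source of this difference from the germline entry was not tested.

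Some rearrangements recurred. Counting V gene, J gene and CDR3 together, 34917 D-proximal rearrangements were seen, of which 30116 occurred in 1 library and 355 in all 4. Rearrangements in 1 library averaged 10.48 amino acids and 92.2% were productive; those in all 4 averaged 8.85 amino acids and 98.6% were productive. The 355 held 10.4% and 16.6% of the D-proximal reads in WT and 19.1% and 13.5% in Igll1-/- libraries. IGHV1-19 contributed 60 of them, IGHV1-7 54 and IGHV1-18 48. WT replicate 1 shared 14.2% of its rearrangements with WT replicate 2 and 14.0% and 18.9% with the Igll1-/- libraries. WT replicate 2 shared 14.8% with WT replicate 1 and 7.39% and 11.1% with the Igll1-/- libraries. These shares also depend on the number of rearrangements per library, which ran from 6703 to 12152. A rearrangement counted as present in a library from 1 read up. AMMVTAY on IGHV1-22, for example, was seen in all 4 libraries with 6, 3, 1 and 1177 reads. Whether such low counts come from separate rearrangements in each library was not tested, so the 355 and the shares between libraries may be too high.

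The 6 of the 355 with at least 4 reads in every library are shown next. All 355 have the same V gene in both genotypes by definition, since the V gene is part of what was counted.
IGHV1-19 with IGHJ3: ATGTWFAY
IGHV1-18 with IGHJ3: ARWFAY
IGHV1-7 with IGHJ2: ARWDY
IGHV1-18 with IGHJ3: ATGTFAY
IGHV1-15 with IGHJ2: TNWDY
IGHV1-15 with IGHJ3: TRGFAY
All 6 were 5 to 8 amino acids long. The V gene or list with most ARWDY reads was IGHV1-72 in WT, with 138 and 147 reads. In Igll1-/- replicate 1 it was the list of IGHV1-26 and IGHV1-34, with 148 reads, and in replicate 2 IGHV1-42, with 1287. On IGHV1-7 ARWDY had 4, 4, 30 and 28 reads. ATGTWFAY had most reads on IGHV1-19 except in WT replicate 2, where the list of IGHV9-2-1 and IGHV9-3 held 136 reads against 60. Whether such junctions arose independently was not tested. ARWFAY on IGHV1-18 had 47, 27, 26 and 11 reads in WT replicates 1 and 2 and Igll1-/- replicates 1 and 2. TNWDY on IGHV1-15, assigned to IGHD4-1, had 27, 5, 4 and 158 reads.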

How the data were processed

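The authors amplified rearranged *Igh* loci of B-1a cells from genomic DNA and used IMGT/High-V-QUEST for V, D and J assignment, whose version is not given in the sources used here. Products of 120 to 280 bp were kept, per the labels. Each deposited table holds 1 row per clonotype with a count of its reads and the percent identity to the germline V gene. The *Igk* tables were not used here. A clonotype counted as 1 regardless of its reads, with all clonotypes of the library as library size.

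Genes reaching 10 clonotypes in 2 or more libraries were fitted together with edgeR 4.0.16 (R 4.3.3) by the quasi-likelihood test without covariates, with Benjamini-Hochberg adjustment, and with DESeq2 1.42.0 as an alternative. On simulated counts for these 91 genes with a common dispersion of 0.02, the test recovered 193 of 195 genes changed 4-fold, with 14 false calls over 20 draws. The real spread differs between genes. In the real data IGHV1-34, at 1.997 on the log2 scale, had an edgeR adjusted p of 0.412. The recovery therefore does not give the power of the test on these libraries. Values per library were compared with exact permutation tests in Python 3.11.15. Depth ranged from 180593 to 285517 reads and 32386 to 58205 clonotypes per library; intervals cover counting error only. Files name no genome build, so RefSeq GRCm38.p6 served for names, gene type and order alone.

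Genes were named when among the 10 most used, among the 4 with the widest gap per direction without overlap of the genotypes, when holding one of the 100 clonotypes with most reads of a library, or at either end of the list; genes given for contrast were chosen after their values were seen. The members and lists were chosen with earlier results of these data known. Alternatives were reads, minimum reads of 2 or 10, productive clonotypes, the first V gene listed, merged near-identical CDR3s, TMM, no filter, single-gene library size, the replicate block and leaving out libraries. Equal J or V gene makeup, leaving out IGHV1-7, and leaving out CDR3s with 10 times the reads on another V gene or list were added after seeing the data.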

Additional observations from a re-analysis of the deposited data

Results flagged for a closer look

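Clonotypes that could not be told apart between IGHV1-26 and IGHV1-34 lay outside the gene counts, since each was listed with both names, and they were singled out because their share was higher in both Igll1-/- libraries than in either WT library. They made up 3.46% and 2.95% of all *Igh* clonotypes in Igll1-/- replicates 1 and 2, against 1.96% and 1.94% in WT replicates 1 and 2. By reads they took 7.46% and 6.14% in Igll1-/- and 1.87% and 1.87% in WT libraries. The largest clonotype of Igll1-/- replicate 1, YYSDY, held 29.7% of these reads, and without it the share was 5.24%. In Igll1-/- replicate 2 the largest, ARYMMVDY, held 5.08%. Both genes belong to the D-proximal group, and all clonotypes listed with several of its genes and no other gene made up 2.27% and 2.25% in WT and 4.04% and 3.56% in Igll1-/- libraries. The difference was not tested.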

How the results depend on the processing

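The differences between the genotypes in productive share and CDR3 length kept their direction under all alternatives run. The count of 0 D-proximal genes with an edgeR adjusted p under 0.05 became 2 of 12 with at least 10 reads, beside 3 of 42 (7.14%) over all genes. Fits with a library left out rest on 1 library in a genotype. The log2 fold change of IGHV1-25 was 2.90 without Igll1-/- replicate 1 and 0.99 without Igll1-/- replicate 2. The difference in the share of all clonotypes turned to 0.36 by reads and to 1.17 with the first V gene listed, and that in the share of IGHV1 turned to 2.85 with the first V gene listed and ranged from -4.21 to 2.71 over the libraries left out. Of 287 log2 fold changes of named genes under alternatives, 273 kept direction and call, 3 passed the threshold and 11 turned, all of them with adjusted p-values above 0.05. IGHV1-7 had -0.026 with merged CDR3s, IGHV1-22 had -0.25 with at least 10 reads, and IGHV1-42 had 3.97 by reads and 1.47 with the first V gene listed. The other turns came when a library was left out: over those fits IGHV1-7 ranged from -0.061 (without Igll1-/- replicate 1) to 0.33, IGHV1-9 from -0.52 to 0.28 (without WT replicate 1; 0.045 without Igll1-/- replicate 2), IGHV1-22 from -0.090 (without Igll1-/- replicate 2; -0.03 without WT replicate 2) to 0.32, IGHV1-20 from -0.92 (without Igll1-/- replicate 2) to 1.35 and IGHV1-43 from -0.76 (without Igll1-/- replicate 1) to 1.63. The cause of these turns was not tested. Libraries share only a number: their deviations correlated at r = 0.32 over 91 genes for the same number. With the replicate block 0 D-proximal genes passed, and the 4 differences between genotypes kept their values of -0.84, -0.75, 2.40 and -0.53, with a smallest paired p of 0.5 (exact sign-flip permutation). The D-proximal minus D-distal CDR3 length with at least 10 reads was 0.37 and 0.48 amino acids in WT and -0.63 and -0.46 in Igll1-/- libraries. Depth limited the rare genes most: 12 of the 27 averaged under 0.1% of clonotypes.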
